A study of Mus musculus with 2 samples.

Results

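The SLC16 family encodes the monocarboxylate transporters, membrane carriers of small metabolites. The genes Slc16a1, Slc16a6, Slc16a9, Slc16a11 and Slc16a12 were taken by their symbols in the deposited gene lists, and each symbol stood on 1 row. They are 5 of the 14 SLC16 carriers and of the 32287 features listed. The rule names symbols and no expression threshold, although these 5 were picked with earlier results of these data known.

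Monocarboxylate transporters carry lactate, pyruvate, ketone bodies and related compounds across the plasma membrane, and several of them move a proton together with the anion. Slc16a1 encodes MCT1, the widely expressed carrier of lactate, pyruvate and ketone bodies. It reaches the membrane in complex with a chaperone, basigin (Bsg) or embigin (Emb), and in the brain it is known from the endothelium of the blood-brain barrier. Slc16a6 encodes MCT7, which has been linked to ketone body export, and Slc16a9 encodes MCT9, which has been linked to carnitine transport. Slc16a11 encodes MCT11, which has been linked to pyruvate transport, and Slc16a12 encodes MCT12, a creatine transporter. The leptomeninges are the inner membranes that cover the brain. The pia lies on the brain surface and the arachnoid above it. The barrier cells of the arachnoid, joined by tight junctions, face the dural border cells.

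The material was leptomeninges peeled by hand from the cerebral hemispheres of adult Pdgfra-H2BGFP mice of both sexes, aged 3 months. This strain carries a nuclear green fluorescent protein at the Pdgfra locus, which is active in fibroblasts. The tissue was digested to single cells and loaded as 2 droplet libraries, R1 and R2, with the aim of at most 5000 recovered cells each. The labels name 1 group and no treatment, and whether separate animals stand behind R1 and R2 is not stated there. The p-values below therefore rest on how differences between cell classes varied across these 2 libraries, a spread that may be technical. The test also shares this spread across genes, so very small p-values do not stand for many replicates.

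The files held 7276 barcodes in R1 and 6743 in R2, and 93 barcode sequences occurred in both. After filters on genes per barcode (at least 400) and mitochondrial UMIs (at most 10%), 2985 and 3035 cells with a median of 1643 and 1249 UMIs were kept. A UMI is a tag that marks 1 captured transcript. Cells were clustered without any SLC16 gene and classes were named from marker lists as "-like". The classes were pial and perivascular fibroblast-like cells (174 in R1 and 106 in R2), inner arachnoid fibroblast-like cells (244 and 444), arachnoid barrier-like cells (41 and 33) and dural border-like cells (579 and 296), together called layers here. The others compared were endothelial-like (331 and 318), border macrophage-like (533 and 670), microglia-like (186 and 99) and mural-like cells (48 and 50). In the arachnoid barrier-like class, the keratin markers Krt8 and Krt18 had no UMI. A fibroblast-like cluster, F00, held 338 and 633 barcodes, had no layer name and was low in the nuclear transcript Malat1, with a median of 0.124% and 0.0962% of UMIs. The clusters C06, C09, C17 and F07 also stayed unnamed, as did 4 clusters within the endothelial-like class. C17 held neuronal and astrocyte transcripts (36 and 54 cells), and F07 held macrophage transcripts (19 and 49 barcodes). Doublets were probably not removed in full, because the doublet caller marked 0.100% and 0.0987% of cells.

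Levels are given as CPM, the UMIs of a gene per 1000000 UMIs of a class in 1 library. The kept cells held 1465 UMIs of Slc16a1 in R1 and 951 in R2. Slc16a11 had 1626 and 1631, Slc16a9 had 705 and 514, and Slc16a6 had 553 and 520. Slc16a12 had the fewest, 124 and 106, so its levels in small classes rest on single UMIs. Of the other 9 carriers, Slc16a5 had 0 and 1 UMIs and Slc16a8 had 0 in both libraries.

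The genes lie apart in the genome (GENCODE M21, build GRCm38). Slc16a1 (ENSMUSG00000032902) spans chr3:104638668-104658462 on the plus strand with 1 annotated transcript. It contains 2 sense-intronic transcripts, Gm43581 and Gm43585. Slc16a6 (ENSMUSG00000041920) spans chr11:109450855-109473598 on the minus strand and overlaps the coding genes Amz2 and Arsg on the opposite strand. Slc16a9 (ENSMUSG00000037762) spans chr10:70245100-70285968 on the plus strand and overlaps an antisense gene and a pseudogene on the opposite strand. Slc16a11 (ENSMUSG00000040938) spans chr11:70212752-70216417 on the plus strand, 372 bases from its family neighbour Slc16a13 on the opposite strand. Slc16a12 (ENSMUSG00000009378) spans chr19:34668403-34747289 on the minus strand and overlaps a processed pseudogene. How the counting treated strand and introns is not given in the sources used here, so reads of overlapping genes cannot be told apart.

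The promoters of Slc16a1 and Slc16a12 are shown, genes that marked opposite layers in the data described next. The windows of Slc16a9 and Slc16a11 held 176 and 199 bases of annotated exons and are not printed. The windows shown are the 250 bases before the RefSeq start (GRCm38.p6), at chr3:104638414-104638663 on the plus strand and chr19:34747329-34747578 on the minus strand. Capitals mark matches to an E-box (CACGTG) or a GC box (GGGCGG).
Slc16a1: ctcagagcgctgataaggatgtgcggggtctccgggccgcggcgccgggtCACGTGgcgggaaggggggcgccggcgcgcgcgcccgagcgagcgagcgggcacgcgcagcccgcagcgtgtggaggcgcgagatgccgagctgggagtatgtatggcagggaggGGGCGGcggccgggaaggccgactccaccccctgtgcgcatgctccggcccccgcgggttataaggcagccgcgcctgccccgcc
Slc16a12: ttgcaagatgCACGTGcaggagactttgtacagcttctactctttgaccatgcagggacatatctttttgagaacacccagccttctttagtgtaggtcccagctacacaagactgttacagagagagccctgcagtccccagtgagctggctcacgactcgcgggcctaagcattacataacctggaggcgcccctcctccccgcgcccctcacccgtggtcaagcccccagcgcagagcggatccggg
Each window shown held 1 E-box, starting at position -200 in Slc16a1 and -240 in Slc16a12, and the Slc16a1 window held a GC box at -85. The motifs were searched on both strands, and of 32851 RefSeq promoters of this length 6.02% held an E-box and 32.7% a GC box. The CCAAT box (CCAAT, in 33.8% of promoters), the TATA box (TATAAA, 12.4%), a forkhead motif (TGTTTAC, 3.17%), a ZIC motif (CAGCAGG, 8.44%) and the cyclic AMP element (TGACGTCA, 1.55%) had no match in these windows. The Slc16a1 window was 76.4% G or C and the Slc16a12 window 57.6%. The table held promoters for 4 of the 5 genes, not for Slc16a6. Of the windows not printed, that of Slc16a9 held 3 GC boxes, and that of Slc16a11 a CCAAT box at -209 and a ZIC motif at -46.

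Across classes, the genes fell into different patterns. Slc16a1 and Slc16a9 were highest in dural border-like cells, Slc16a11 was found in every layer, Slc16a6 was high in inner arachnoid and barrier-like cells and in microglia-like cells, and Slc16a12 was highest in pial cells. The plot of levels by class shows these values.

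**Figure D1:**
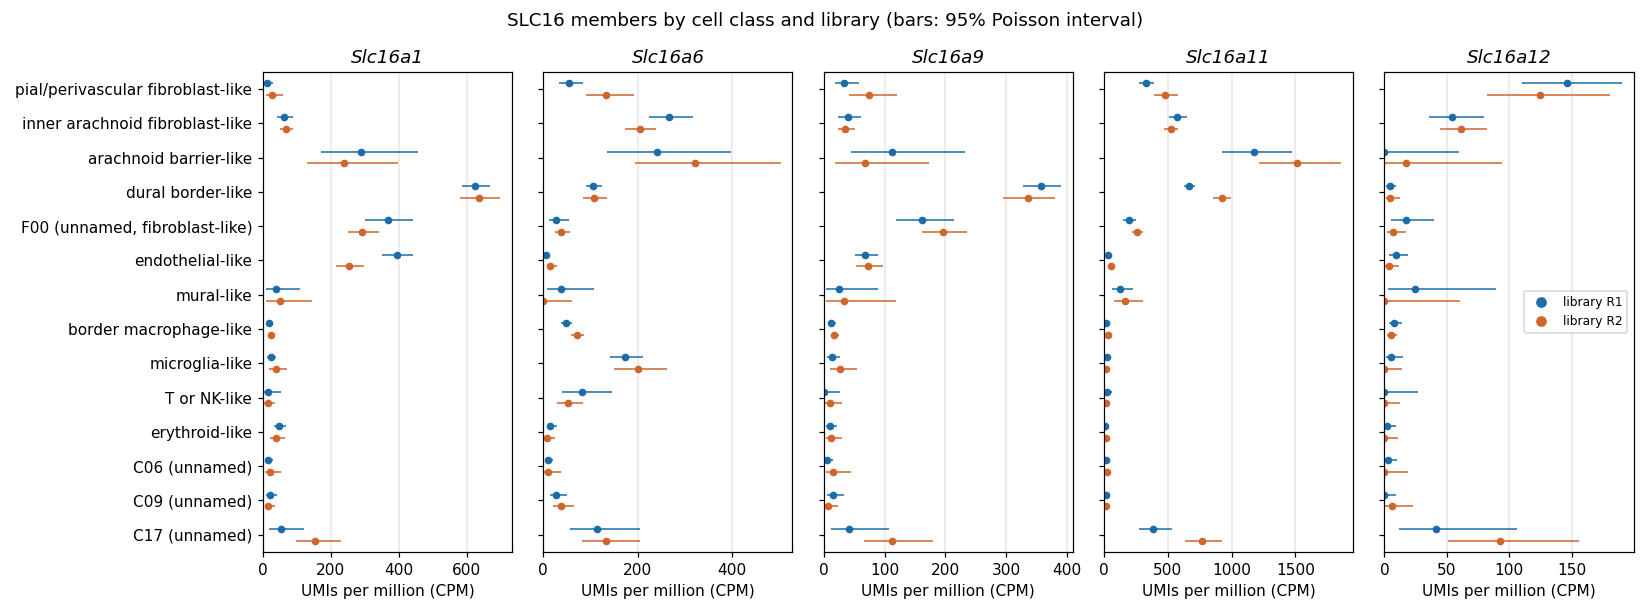
Level of each gene by class, in UMIs per 1000000 UMIs of the class (CPM, linear axis starting at 0), for library R1 and library R2. Slc16a1 and Slc16a9 peak in dural border-like cells (626 and 638, and 358 and 336), Slc16a11 in arachnoid barrier-like cells (1175 and 1511) and Slc16a12 in pial and perivascular fibroblast-like cells (146 and 124).

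Slc16a1, the lactate and ketone body carrier, reached 626 CPM in R1 and 638 in R2 in dural border-like cells, from 903 and 456 UMIs. All 13 other classes with at least 20 cells per library lay below this in both libraries, with Poisson intervals (95%) that did not overlap. The next in order were F00 with 367 and 293, endothelial-like cells with 394 and 254, and arachnoid barrier-like cells with 290 and 238. These 3 did not differ from one another in that order beyond their spread. Inner arachnoid fibroblast-like cells had 62.8 and 66.8. The pial and perivascular class was at 13.1 and 27.7 from 5 and 6 UMIs. Border macrophage-like cells had 18.6 and 23.1, close to the pial level. The layers thus differed widely in Slc16a1.

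Cells were thinned to 1000 UMIs each to compare the share of cells with a UMI at equal depth, leaving out shallower cells. For Slc16a1 the share was 41.3% of 525 and 44.2% of 269 dural border-like cells, against 66.0% and 67.2% before thinning. It was 23.9% and 19.8% in endothelial-like cells and 5.96% and 6.12% in inner arachnoid fibroblast-like cells. In pial cells 0 of 148 in R1 (exact 95% binomial interval up to 2.46%) and 4.17% of 72 in R2 had a UMI. Border macrophage-like cells, taken as the background, had 2.91% and 2.17%, with median depths of 1451 and 1221 UMIs against 2329 and 2147 in dural border-like cells. They were not the class with the lowest Slc16a1 level, and the mean pial level (20.4 CPM) was close to theirs (20.9). The pial intervals overlapped that background, whereas those of dural border-like and endothelial-like cells lay above it.

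Slc16a9, the carnitine-linked carrier, was also highest in dural border-like cells, with 358 and 336 CPM from 516 and 240 UMIs. All 13 other classes were lower in both libraries beyond the same spread. F00 followed with 161 and 197, and endothelial-like cells had 68.5 and 72.2. Inner arachnoid fibroblast-like cells had 39.8 and 35.4, and pial cells had 34.0 and 73.7 from 13 and 16 UMIs. After thinning, 26.9% and 22.3% of dural border-like cells had a UMI, against 1.32% and 1.93% of border macrophage-like cells. Arachnoid barrier-like cells had 113 and 67.9 from 7 and 4 UMIs, too few to place them against F00 or endothelial-like cells.

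Slc16a11, the pyruvate-linked carrier, was highest in arachnoid barrier-like cells, with 1175 and 1511 CPM from 73 and 89 UMIs. Dural border-like cells had 667 and 925, inner arachnoid fibroblast-like cells 575 and 522, and pial cells 327 and 479. All 4 layers were above endothelial-like cells, with 29.0 and 57.4, and border macrophage-like cells, with 15.04 and 27.8. Slc16a11 was not confined to the layers. The unnamed cluster C17 had 385 and 769, from 37 and 116 UMIs. It stood between dural border-like and inner arachnoid cells and differed from neither beyond its spread. F00 had 195 and 260. Mural-like cells had 123 and 165, from 10 and 10 UMIs, and did not differ from endothelial-like cells beyond their spread. Within the order, arachnoid barrier-like and dural border-like cells did not differ beyond their spread, nor did inner arachnoid and pial cells. The thinned share was 63.0% and 60.9% in arachnoid barrier-like, 47.8% and 57.2% in dural border-like, 37.7% and 33.8% in inner arachnoid and 27.0% and 31.9% in pial cells. It was 1.57% and 4.85% in the endothelium, and for border macrophage-like cells it was 1.06% and 3.38%, an overlapping range.

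Slc16a6, the ketone-linked carrier, had 268 and 204 CPM in inner arachnoid fibroblast-like cells and 241 and 323 in arachnoid barrier-like cells. Microglia-like cells had 174 and 202, and dural border-like cells 106 and 108. Pial cells had 54.9 and 134, which differed between the libraries. Endothelial-like cells had the lowest level of the larger classes, 5.27 and 14.8 from 4 and 9 UMIs. The first 3 classes in this order did not differ from their neighbours beyond their spread. The thinned share was 24.5% and 18.3% in inner arachnoid fibroblast-like cells, 15.4% and 10% in microglia-like cells and 0.392% and 1.32% in endothelial-like cells.

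Slc16a12, the creatine carrier, had 146 and 124 CPM in pial and perivascular fibroblast-like cells, from 56 and 27 UMIs. Inner arachnoid fibroblast-like cells had 54.4 and 61.3, from 26 and 45 UMIs. Dural border-like cells had 4.161 and 4.197, from 6 and 3 UMIs. Border macrophage-like cells had 7.88 and 5.29, so the dural border-like level was not above that background. The unnamed cluster C17 stood next to the pial cells with 41.6 and 92.8, from 4 and 14 UMIs, and did not differ from them beyond its spread. The thinned share was 12.2% and 13.9% in pial cells and 7.28% and 4.68% in inner arachnoid cells.

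Sums of UMIs per class and library were then compared by edgeR's quasi-likelihood test with the library as a block, and p-values were adjusted by the Benjamini-Hochberg method over all genes tested. Fold changes are given on the log2 scale with their standard errors. These errors come from the fit, which shares the spread across genes, and do not measure the gap between the 2 libraries. Classes had at least 50 cells in each library, unless stated otherwise. The first comparison set the mean of 3 layers (pial, inner arachnoid and dural border-like) against the mean of the 3 remaining classes of that size, microglia-like, border macrophage-like and endothelial-like cells. All 5 genes were higher in the layers, where 31.8% of 10799 tested genes were called higher, 28.4% lower and 60.2% in either direction. The median difference was 1.57 for the 5 genes and 0.05 for all genes tested. These 5 were picked with earlier results of these data known, so their count does not speak for the family. Of the other 9 SLC16 carriers 5 were tested, and 2 were called higher and 1 lower. Slc16a11 differed by 4.24 ± 0.15 (adjusted p = 9.67e-87), Slc16a12 by 2.46 ± 0.37 (9.61e-10), Slc16a9 by 1.57 ± 0.20 (9.42e-13) and Slc16a6 by 1.33 ± 0.17 (5.37e-13). Slc16a1 differed by 0.56 ± 0.22 (adjusted p = 0.0240), and this call was lost under 7 other settings, with a change of -0.84 when at most 5% mitochondrial UMIs were allowed. Under that setting microglia-like cells (78 and 39) fell under the minimum of 50, so the contrast was made without them. The same held when only cells with at least 1% Malat1 UMIs were kept (84 and 40 microglia-like cells). The Slc16a12 call was lost with classes of at least 30 cells (adjusted p = 0.0556), where arachnoid barrier-like and mural-like cells joined the comparison.

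Endothelial-like cells were compared with the mean of the other 5 classes, where 35% of tested genes were called. Slc16a1 was higher by 2.53 ± 0.16 (adjusted p = 1.01e-39), and it was higher in both libraries, by 2.89 in R1 and 1.87 in R2. Slc16a9 was higher by 0.59 ± 0.21 (adjusted p = 0.0186). Slc16a6 was lower by a log2 change of -3.68 ± 0.30 (adjusted p = 1.54e-27) and Slc16a11 by -1.92 ± 0.23 (6.74e-14). Slc16a12 changed by -1.27 ± 0.51 (adjusted p = 0.0409). Thus 2 of 5 genes were called higher against 20.7% of all tested genes, and 3 were called lower against 14.3%. The Slc16a9 call was lost with DESeq2, with cells of at least 1% Malat1 and with named endothelial subclasses only. The Slc16a12 call was lost under 7 settings, and its change turned to 0.18 when at least 800 genes per cell were required.

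The layers were then compared with one another, with each set against the mean of the other 2. The plot of layer contrasts gives the fits and the single-library differences.

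**Figure D2:**
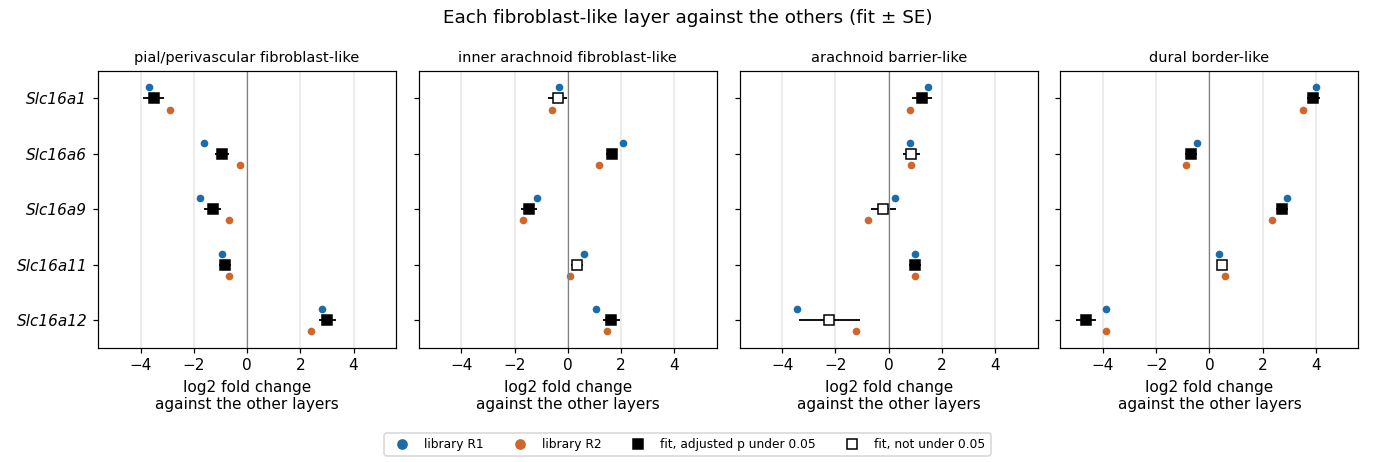
Log2 fold change of each gene in a layer against the other layers, with squares for the edgeR fit (bars are the standard error, filled where the adjusted p is under 0.05) and dots for the single libraries R1 and R2. Slc16a12 rises in the pial layer (3.02) and Slc16a1 in the dural border-like layer (3.89), where Slc16a12 falls (-4.65); the arachnoid barrier-like panel uses classes of at least 30 cells.

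In dural border-like cells, Slc16a1 rose by 3.89 ± 0.24 (adjusted p = 1.18e-54) and Slc16a9 by 2.73 ± 0.22 (6.91e-33). Slc16a12 changed by -4.65 ± 0.37 (adjusted p = 1.19e-34) and Slc16a6 by -0.69 ± 0.22 (0.00917). Thus 2 genes were called higher and 2 lower, where 13.4% and 13% of 9062 tested genes were called in these directions. Slc16a11 changed by 0.47 ± 0.20 and did not pass (adjusted p = 0.0715). It passed with at most 5% mitochondrial UMIs (0.50), with at most 20% (1.14) and with unnamed clusters kept as classes (0.87). The Slc16a6 change became 0.04 with at most 20% mitochondrial UMIs and 0.05 with unnamed clusters as classes.

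In pial and perivascular fibroblast-like cells, Slc16a12 rose by 3.02 ± 0.30 (adjusted p = 4.47e-21), by 2.81 in R1 and 2.41 in R2. The other 4 genes were called lower, with changes of -3.51 ± 0.39 for Slc16a1 (adjusted p = 1.45e-17), -1.28 ± 0.32 for Slc16a9 (0.000902), -0.96 ± 0.26 for Slc16a6 (0.00296) and -0.82 ± 0.23 for Slc16a11 (0.0037). Of all tested genes, 15.1% were called here, 8.42% higher and 6.72% lower. The Slc16a6 difference was -1.61 in R1 and -0.28 in R2. When up to 20% mitochondrial UMIs were allowed, and when unnamed clusters were kept as classes, the calls for Slc16a6 and Slc16a11 were lost, that for Slc16a6 also with DESeq2, and the Slc16a9 call was lost at 800 genes per cell.

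In inner arachnoid fibroblast-like cells, Slc16a6 rose by 1.64 ± 0.21 (adjusted p = 3.03e-13) and Slc16a12 by 1.63 ± 0.32 (9.61e-06). The Slc16a12 level (54.4 and 61.3 CPM) was still below that of pial cells (146 and 124). Slc16a9 changed by -1.45 ± 0.30 (adjusted p = 3.92e-05). These are 2 higher and 1 lower, where 12.8% and 7.03% of tested genes were called. Slc16a1 (-0.39 ± 0.35, adjusted p = 0.476) and Slc16a11 (0.34 ± 0.21, adjusted p = 0.257) did not pass. Slc16a11 passed with at most 5% mitochondrial UMIs (0.93), with 800 genes per cell (0.72), with at least 1% Malat1 (0.91) and with unnamed clusters kept as classes (0.72). With the limit at 20% mitochondrial UMIs its change was -1.08, and that of Slc16a6 was 0.04. Under that limit the class was composed anew and held 341 and 693 cells. An unnamed fibroblast-like cluster of 85 and 97 cells then lay outside the layers, and whether this takes part was not tested. Slc16a1 passed with unnamed clusters kept as classes (-0.94). The inner arachnoid class joined 2 clusters, described next.

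Clusters of the same class differed in Malat1, and the gene levels differed with it. F05 had a median Malat1 share of 5.03% in R1 and 5.81% in R2, and F01 had 0.071% and 0.0539%. F01 made up 156 of 244 inner arachnoid cells in R1 and 353 of 444 in R2. Slc16a6 was at 372 and 391 CPM in F05 and at 81.8 and 99.997 in F01. The F01 level was thus not above that of dural border-like cells (106 and 108). Slc16a11 was at 769 and 1046 in F05 and at 228 in both libraries in F01. Slc16a1 was at 65.2 and 64.5 against 58.5 and 68.1, so it did not follow the split.

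The same direction was seen for Slc16a6 in myeloid clusters. In border macrophage-like cells Slc16a6 was at 66.0 and 93.9 CPM in the Malat1-rich cluster C05 and at 16.4 and 30.7 in the Malat1-poor cluster C01. In microglia-like cells it was at 206 and 269 in C13 and at 84.4 and 14.4 in C10, where R2 had 1 UMI. Slc16a11 took the opposite order in border macrophage-like cells, with 5.50 and 7.30 in C05 and 32.8 and 63.2 in C01. The median UMI count per cell was 4876 in C05 and 1026 in C01. Whether RNA quality or depth takes part in these differences was not tested.

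**Figure D3:**
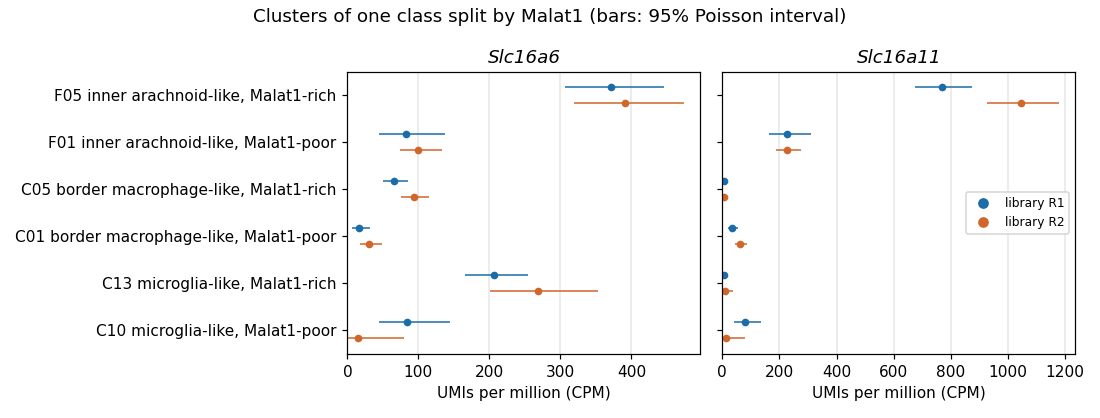
Level of Slc16a6 and Slc16a11 (CPM, with 95% Poisson intervals) in pairs of clusters of the same class that differ in Malat1, for libraries R1 and R2. Slc16a6 is higher in the Malat1-rich cluster of each pair (372 and 391 against 81.8 and 99.997 in inner arachnoid fibroblast-like cells), and Slc16a11 is higher only in the inner arachnoid pair.

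Arachnoid barrier-like cells had fewer than 50 cells per library and were compared with a minimum of 30. Against the mean of the other layers, Slc16a1 rose by 1.25 ± 0.36 (adjusted p = 0.0153) and Slc16a11 by 0.99 ± 0.22 (0.000547), where 3.05% of 8447 tested genes were called higher, 2.21% lower and 5.27% in either direction. The Slc16a1 level (290 and 238 CPM) was still below that of dural border-like cells (626 and 638). Slc16a6 (0.84 ± 0.32, adjusted p = 0.104), Slc16a9 (-0.20 ± 0.48, 0.904) and Slc16a12 (-2.22 ± 1.16, 0.321) did not pass. Slc16a6 passed when up to 20% mitochondrial UMIs were allowed (1.15) and with unnamed clusters as classes (1.31). The Slc16a1 call was lost without a filter on low counts (1.08), with unnamed clusters as classes (0.78) and when up to 20% mitochondrial UMIs were allowed (0.84).

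The arachnoid barrier and the endothelium each form a barrier between blood and brain fluids, and the 2 classes were compared directly. Slc16a11 was higher in arachnoid barrier-like cells by 4.64 ± 0.28 (adjusted p = 5.43e-60) and Slc16a6 by 4.504 ± 0.47 (1.57e-19), where 7.65% of 10662 tested genes were called higher and 20.4% in either direction. For Slc16a1 the change was -0.63 ± 0.30 (adjusted p = 0.133) and for Slc16a9 it was 0.03 ± 0.49 (0.98). Slc16a12 rested on 1 UMI in the barrier-like class, and its fit was 0.01 ± 1.65.

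Within the endothelium, Slc16a1 differed between the venous-like and arterial-like classes. Venous-like cells (97 and 112 cells) had 459 and 257 CPM, and arterial-like cells (65 and 71 cells) had 36.2 and 56.0. Slc16a1 was higher in venous-like cells by 2.96 ± 0.41 (adjusted p = 0.000563), with a larger difference in R1 (3.37) than in R2 (1.996), where 16% of 3413 tested genes were called higher and 30.5% in either direction. Of the 5 genes, Slc16a1 and Slc16a9 passed the filter on low counts. Slc16a9 had 82.3 and 77.2 against 48.2 and 44.8, a difference of 0.82 ± 0.46 that did not pass (adjusted p = 0.22). This fit left 1 residual degree of freedom.

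The venous-like class joined 2 clusters that differed. E00 had 844 and 447 CPM of Slc16a1, and E05, which was led by the inflammatory genes Lcn2, Cxcl1, Cxcl2 and Sele, had 136 and 53.5. In R2, E05 was thus no higher than arterial-like cells, so the class difference does not hold for each venous-like cluster. The unnamed cluster E01 (95 and 48 cells) scored highest for the capillary markers and also held mural genes. It had 538 and 617, and the unnamed cluster E03, which held fibroblast genes, had 534 and 273. E01 was then added as a class of its own, an analysis chosen after the data were seen. Slc16a1 was higher in E01 by 1.98 ± 0.28 (adjusted p = 2.48e-05), where 10.3% of 3966 tested genes were called, 5.77% higher and 4.49% lower. It was higher in venous-like cells by 1.22 ± 0.29 (adjusted p = 0.00341), where 22.2% were called, 14.4% higher and 7.77% lower. In arterial-like cells it changed by -3.20 ± 0.41 (adjusted p = 1.89e-06), where 26.6% were called, 13.6% higher and 13% lower. Slc16a9 passed in none of these 3 comparisons, with adjusted p from 0.228 to 0.591.

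**Figure D4:**
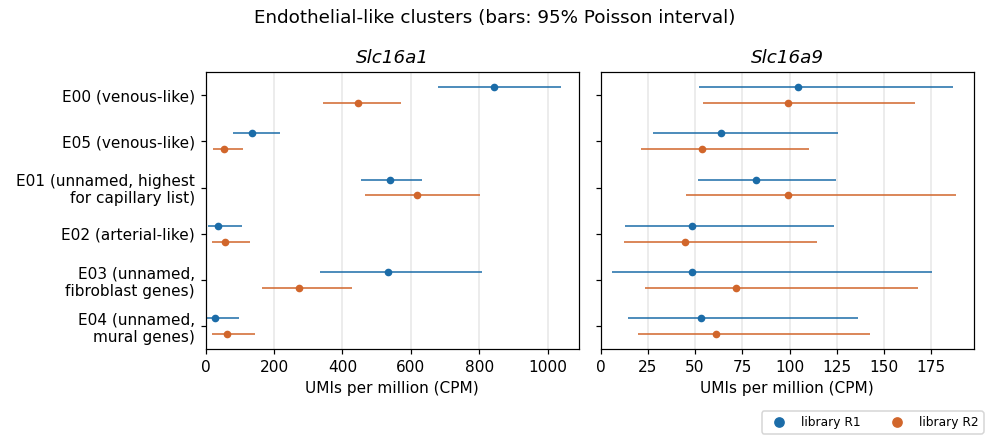
Level of Slc16a1 and Slc16a9 (CPM, with 95% Poisson intervals) in endothelial-like clusters of libraries R1 and R2. Slc16a1 is high in E00 (844 and 447) and E01 (538 and 617) and low in the arterial-like cluster E02 (36.2 and 56.0), whereas the intervals of Slc16a9 overlap throughout.

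Slc16a1 needs a chaperone, and the 2 chaperone genes Bsg and Emb had their highest levels in different classes. Basigin was at 16377 and 15339 CPM in endothelial-like cells, and at 1025 and 1293 in dural border-like cells. It was higher in endothelial-like cells than in the other classes by 4.33 ± 0.13 and higher in venous-like than arterial-like cells by 2.34 ± 0.21 (adjusted p = 3.37e-05). Embigin was at 532 and 622 in dural border-like cells, 384 and 391 in F00 and 34.3 and 39.4 in endothelial-like cells. It rose in dural border-like cells against the other layers by 3.23 ± 0.23 (adjusted p = 1.85e-43) and changed in pial cells by -2.77 ± 0.34 (2.31e-14). Among the classes, dural border-like cells had the highest level of Emb and endothelial-like cells the highest level of Bsg. Within dural border-like cells, Bsg was still above Emb in both libraries.

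**Figure D5:**
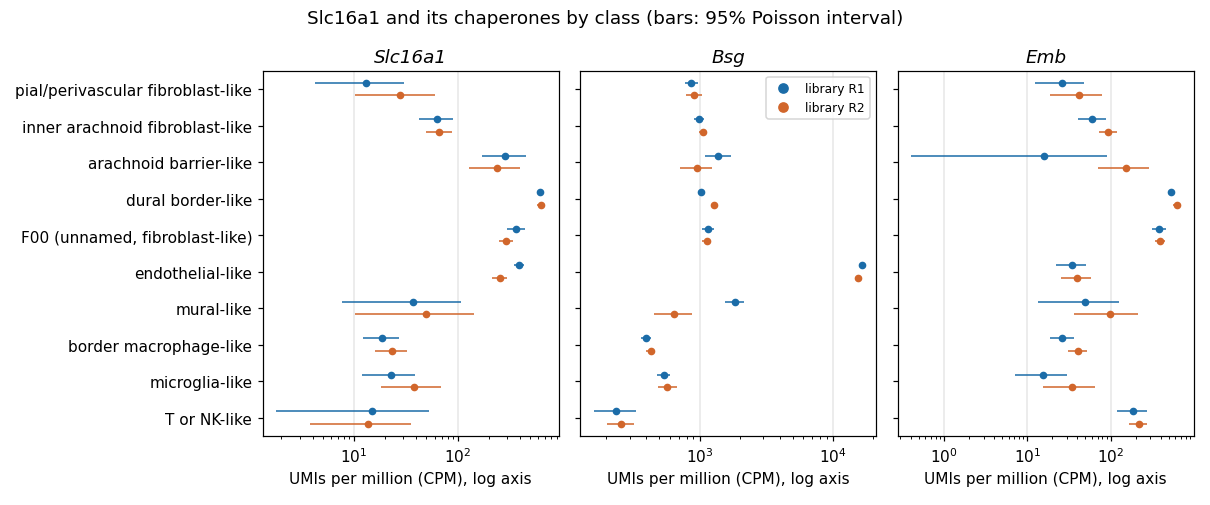
Level of Slc16a1, Bsg and Emb by class (CPM, log axis, with 95% Poisson intervals) in libraries R1 and R2. Dural border-like cells, highest for Slc16a1, are also highest for Emb (532 and 622), and endothelial-like cells are highest for Bsg (16377 and 15339).

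A list of 31 genes around these carriers (other SLC16 carriers, chaperones and genes of lactate, ketone body, creatine, carnitine and glucose handling) was examined with the same fits. In inner arachnoid fibroblast-like cells 8 of 21 tested genes rose and 1 fell, where 12.8% and 7.03% of all tested genes did. The list median was 0.60 against 0.01 for all genes. The largest rises were those of Slc2a1, the glucose carrier GLUT1 (2.29 ± 0.41), Hk2, a hexokinase (2.06 ± 0.54), and Ldhb, a lactate dehydrogenase subunit (1.94 ± 0.20). The mitochondrial pyruvate carrier gene Mpc1 rose by 1.37 ± 0.22. The ketone body genes Oxct1 (1.30 ± 0.20) and Acat1 (0.73 ± 0.22) rose too, as did Pdha1 and Ckb, and Slc22a5, a carnitine carrier, fell. The inner arachnoid class was low in Malat1, with a median of 0.156% in R1 and 0.104% in R2. Pial cells had 4.36% and 5.25%, and dural border-like cells 7.06% and 8.21%. The contrasts of the other layers include this class too. List genes are given under the main setting only, and whether RNA quality takes part was not tested. In pial cells 1 of 21 rose and 3 fell, where 8.42% and 6.72% of all tested genes did, so the risers were no larger a share than over all genes. The gene that rose was Gatm, the first enzyme of creatine synthesis (3.30 ± 0.24, adjusted p = 8.44e-42), and those that fell were Emb, Mpc1 and Ckb, a creatine kinase (-0.79 ± 0.23). Gatm was at 295 and 267 CPM in pial and at 9.71 and 12.6 in dural border-like cells, where it fell by 3.93 on the log2 scale.

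In dural border-like cells 2 of 21 list genes rose and 7 fell, with a median of -0.22 against -0.01 for all genes. Of all tested genes, 13.4% rose and 13% fell. Those that fell were Gatm, Hk2 (-3.51 ± 0.63), Slc2a1 (-1.59 ± 0.51), Ldhb, Oxct1, Acat1 and Mpc1. The other riser besides Emb was Slc16a13, the neighbour of Slc16a11 (1.39 ± 0.27, adjusted p = 4.24e-06). Slc16a13 was at 69.4 and 101 CPM in dural border-like, 48.3 and 84.9 in arachnoid barrier-like, 35.6 and 20.4 in inner arachnoid and 31.4 and 13.8 in pial cells. In endothelial-like cells 7 of 24 rose and 9 fell, where 20.7% and 14.3% of all tested genes did. The largest rise was that of Slc16a4 (7.74 ± 0.41), another family carrier, followed by Slc2a1 (6.79 ± 0.15). The largest falls were those of Slc16a7, which encodes MCT2 (-3.36 ± 1.10), Hk2 (-3.31 ± 0.51) and Slc16a10, an aromatic amino acid carrier (-2.87 ± 0.82).

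In the layers against the other classes 10 of 24 rose and 8 fell, beside 31.8% and 28.4% of all tested genes. In arachnoid barrier-like against endothelial-like cells 1 of 24 rose and 7 fell, beside 7.65% and 12.7%. In arachnoid barrier-like cells against the layers 1 of 19 rose and 1 fell, beside 3.05% and 2.21%. In venous-like against arterial-like cells 4 of 13 rose and 2 fell, beside 16% and 14.5%.

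Overlapping transcripts were measured as well. Gm43581, which lies within Slc16a1, had 60.3 and 50.4 CPM in dural border-like cells and 9.22 and 13.1 in endothelial-like cells. It was itself among the leading genes of the dural border-like cluster F02 and was not removed before clustering. Amz2, opposite Slc16a6, had 40.2 and 43.4 in dural border-like cells, 44.4 and 32.3 in pial cells and 39.5 and 29.5 in endothelial-like cells. Slc16a6 itself had fewer UMIs than Amz2 in endothelial-like cells (4 and 9 against 30 and 18). Arsg, on the same strand as Amz2, had 29.5 and 22.8 in microglia-like cells. Across the 6 classes with at least 50 cells per library, the genes most like Slc16a1 by Pearson's r of log2(CPM + 1) were Dmd (0.990), Serpinb6b (0.989) and Zdhhc12 (0.988). For Slc16a6 they were Smarcc1 (0.974) and Oxct1 (0.958), for Slc16a9 Cdc16 (0.997), for Slc16a11 Smg5 (0.997) and for Slc16a12 Rtn2 (0.999). Ranks of this kind rest on 6 points that share libraries, and with 8 classes other genes came first.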

How the data were processed

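Droplet libraries R1 and R2 (Chromium) of mouse leptomeninges gave raw UMI counts per gene and barcode, deposited by the authors as made by Cell Ranger 4.0.0, per the file headers, with build mm10, per the submitters' processing notes. Strand and intron settings are not given in the sources used here. A barcode was kept from 400 detected genes upwards, if mitochondrial transcripts made up no more than 10% of its UMIs. Scrublet calls were removed, 3 per library. Cells were clustered with scanpy 1.11.5 (log-normalized to 10000, 2000 variable genes without any SLC16 gene, the 31 listed genes or sex genes, 30 components, 15 neighbours, Leiden at resolution 1). Fibroblast-like and endothelial-like cells were clustered again at 0.8. Cutoffs for names, the masking of immunoglobulin and haemoglobin genes from leading genes, the minimum of 30 cells and the kind of graph were chosen after the clusters and levels were seen. The 5 genes, the gene lists and the tests were chosen with earlier results of these data known. The text names the 5 genes, and of the listed genes up to 3 that were called with the largest change in each direction, with chaperones and a few others chosen after their values were seen.

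Counts were summed per class and library (R 4.3.3) and tested with edgeR 4.0.16 (TMM scaling, low-count filter, library as a block, quasi-likelihood test, Benjamini-Hochberg adjustment over all tested genes, threshold 0.05). The block pairs the classes because each library holds all of them. Single-library differences used log2 CPM with a prior count of 2 and have no test. CPM intervals are exact Poisson at 95% and cover counting error only. DESeq2 1.42.0 was an alternative. The edgeR step was tested on simulated data. Promoters came from RefSeq (GRCm38.p6) and loci from GENCODE M21.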

Additional observations from a re-analysis of the deposited data

How the results depend on the processing

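Of 37 gene-by-comparison results, 27 were called and 17 of these kept their direction and side of the threshold under every alternative run for them (9 to 14 each). They include Slc16a1 and Slc16a9 in dural border-like cells, Slc16a12 in pial and inner arachnoid cells, Slc16a11 in the layers and Slc16a1 between venous-like and arterial-like cells, where the change ranged from 2.64 to 3.18. Removing the replicate block changed no call and no count of called genes, such as 5 of 5 higher in the layers. That count was 4 under 8 other settings, and the 3 lower in endothelial-like cells became 2 under 7. The cell minimum was applied anew in each setting, so the classes compared could change. At a minimum of 50 cells, microglia-like cells dropped out with at most 5% mitochondrial UMIs and with at least 1% Malat1. Mural-like cells joined with at most 20% mitochondrial UMIs, and mural-like and arachnoid barrier-like cells with a minimum of 30. With at most 20% the inner arachnoid class also changed in composition, to 341 and 693 cells, with an unnamed fibroblast-like cluster of 85 and 97 cells left out. F00 joined the layers with unnamed clusters kept as classes. Other counts changed as follows, and the cause was not tested. The 2 genes higher in inner arachnoid cells became 3 under 4 settings and those in dural border-like cells 3 under 3, each by Slc16a11, and 3 instead of 4 were lower in pial cells at 800 genes and with DESeq2. With at least 1% Malat1, with DESeq2 and with named endothelial subclasses only (added later), 1 gene instead of 2 was higher in endothelial-like cells. With at most 20% mitochondrial UMIs, 1 gene instead of 0 was lower in arachnoid barrier-like than in endothelial-like cells (Slc16a1), 2 instead of 4 were lower in pial cells, 1 instead of 2 higher and 2 instead of 1 lower in inner arachnoid cells, and 1 instead of 2 lower in dural border-like cells. With unnamed clusters as classes, 2 were lower in pial and in inner arachnoid cells and 1 in dural border-like cells, and with DESeq2 1 was lower there. Without a filter on low counts, 1 instead of 2 was higher in arachnoid barrier-like cells.

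Changes of sign were as follows. Slc16a1 in the layers was -0.84 at 5% mitochondrial UMIs, where microglia-like cells were not in the contrast, and in inner arachnoid cells 0.0188 at 20%. Slc16a12 in endothelial-like cells was 0.18 at 800 genes. Slc16a11 in inner arachnoid cells was -1.08 at 20% and -0.0224 with at least 30 cells, where arachnoid barrier-like cells joined the layers. Slc16a6 in dural border-like cells was 0.0366 at 20% and 0.055 with unnamed clusters as classes. Slc16a9 in arachnoid barrier-like cells was 0.0761 against the layers with a shared-neighbour graph, and against endothelial-like cells -0.35 at 20%, -0.0365 at higher resolution and -0.17 without the count filter. Slc16a12 against endothelial-like cells was -0.33, -0.0604 and -0.19 under the same settings, -0.0752 with the shared-neighbour graph and -0.0438 with at least 1% Malat1. Leaving out either library left values without a test. None of the called changes turned in sign, but 3 uncalled ones did: Slc16a9 (-0.44 in R2 alone) and Slc16a12 (-1.81 in R1 alone) in arachnoid barrier-like against endothelial-like cells, and Slc16a9 in arachnoid barrier-like cells against the layers (0.24 in R1 alone). Slc16a12, with 124 and 106 UMIs, limits what small classes can show.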
